A study of Caenorhabditis elegans with 18 samples.

Results

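Genes that are transcribed in the early embryo of the nematode Caenorhabditis elegans were followed across all 18 RNA sequencing libraries of a study of the pheromone ascr#10. They were taken by name from the gene tables as vet-6, pes-10, sdz-30, end-1, end-3, arrd-1 and dpy-14, which is 7 of 46253 genes. They had been picked because most of them were much higher at 58 h than at 50 h in water, so that difference is described here and not tested. All 7 were among the 16006 genes tested, having passed a filter on low counts through their 58 h samples.

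The worms were wild-type N2, the standard laboratory strain, raised on OP50 bacteria at 20 degrees C at 30 to 50 larvae per plate after synchronisation as first-stage larvae. They grew either on plates carrying ascr#10, an ascaroside made mainly by males (2.2 fg on a 60 mm plate or 1.1 fg on a 35 mm plate), or on plates given water alone. Both exposures were sampled at 50 h and 58 h in a first collection and at 58 h again in a second, which makes 6 groups of 3 samples of whole worms with males taken off. The second collection was both newly collected worms and new sequencing, and these cannot be told apart. Total counts per sample were 25.6 M to 32.9 M at the first time of collecting and 54.3 M to 72.3 M at the second (M, 1e6 counts).

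A C. elegans hermaphrodite first makes sperm and then oocytes, and fertilised eggs begin their development inside the mother. The oocyte supplies the first maternal RNAs, and the embryo's own genes are switched on in its early divisions. In the line that forms the gut, the maternal factor SKN-1 turns on med-1 and med-2, which turn on the GATA factors END-1 and END-3, and these turn on elt-7 and elt-2, the regulators of the intestine. vet-6 and pes-10 were found as genes transcribed very early in embryos, and sdz-30 belongs to a family named for zygotic transcripts that depend on SKN-1. dpy-14 encodes a cuticle collagen and arrd-1 a protein with arrestin domains.

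Markers of the germ line and the embryo were checked first. The summed level of 8 oocyte genes lay between 2980 and 3020 CPM in water at 50 h, between 4970 and 5100 CPM in the first 58 h collection and between 5570 and 5600 CPM in the second (CPM, counts per 1e6 of the scaled library). The summed level of 7 sperm genes was 758 to 788 CPM at 50 h and 77.4 to 79.8 CPM in the first 58 h collection in water. The embryonic genes med-1, med-2 and tbx-35 were at 0 counts in every sample of 50 h, of either exposure. They reached at most 7, 5 and 11 counts in any sample, so their absence at 50 h says little. Of the other genes in their marker lists, elt-7, hlh-1 and end-3 stood at 8.29, 1.5 and 0.2 CPM in water at 50 h. ceh-51 and end-1 were at 0.0337 and 0.0117 CPM there. Each sample is a whole worm extract, so more embryos per mother and more RNA per embryo cannot be told apart in any value below.

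The 7 genes were nearly silent at 50 h. Over the 3 water samples of 50 h together there were 20 counts of vet-6, 18 of end-3, 8 of pes-10, 4 of arrd-1, 4 of dpy-14, 3 of sdz-30 and 1 of end-1. In the 3 ascr#10 samples of 50 h the sums were 19, 18, 3, 5, 15, 5 and 1 in the same order of genes. A count of 0 allows a true mean of up to 3 counts, so sdz-30 and end-1 in water and pes-10 and end-1 in ascr#10 were at that floor. Only vet-6 and end-3 had a count in all 6 samples of 50 h and at least 18 counts per exposure.

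vet-6 (WBGene00006902, WBcel235, chromosome I from 13269984 to 13272781, plus strand, 4 exons) had the highest counts of the 7 at 58 h. It stood at 0.211, 0.261 and 0.184 CPM in the water samples of 50 h and at 42.4, 42.7 and 43.9 CPM in those of 58 h in the first collection. The groups were far apart, and the ratio of the summed counts, adjusted for library size, was 193 with an exact 95% interval of 125 to 317. Such intervals cover counting error only.

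pes-10 (WBGene00003983, chromosome II from 12846191 to 12847836, minus strand, 4 exons) is known outside this study for a promoter that is widely used as a minimal promoter in worm reporters. Its level in water was 0.0352, 0.058 and 0.184 CPM at 50 h and 12.8, 12.4 and 11.6 CPM at 58 h, a ratio of 139 (70 to 322). The sample with 0.184 CPM held 5 of the 8 counts. sdz-30 (WBGene00011432, chromosome I from 13307051 to 13308685, plus strand, 1 exon) had exactly 1 count in each water sample of 50 h and 591, 570 and 519 counts at 58 h. Its ratio, 629 (215 to 3050), was the highest point estimate of the 7 but also had one of the widest intervals.

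end-1 (WBGene00001310, chromosome V from 13985128 to 13987074, plus strand, 4 exons) was at 1, 0 and 0 counts in water at 50 h and at 27, 24 and 23 counts at 58 h. Its ratio of 83.1 rests on that single count and has an interval of 14.5 to 3330. end-3 (WBGene00001311, chromosome V from 14014695 to 14015980, plus strand, 4 exons), its neighbour and relative, behaved otherwise. It already had 5, 7 and 6 counts in water at 50 h, and 20, 10 and 16 at 58 h, a ratio of 2.87 (1.63 to 5.26). Its levels of 0.176, 0.203 and 0.221 CPM at 50 h lay below the 0.709, 0.38 and 0.624 CPM of 58 h with no overlap.

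arrd-1 (WBGene00020205, chromosome II from 627505 to 628658, plus strand) had 0, 3 and 1 counts in water at 50 h and 405, 435 and 350 at 58 h, a ratio of 334 (130 to 1230). dpy-14 (WBGene00001075, chromosome I from 6843589 to 6845142, plus strand, 4 exons) had 2, 2 and 0 counts at 50 h and 248, 241 and 271 at 58 h, a ratio of 213 (83 to 785). For each of the 7 genes the 3 water samples of 58 h lay above the 3 of 50 h. Among all genes tested, 37.5% were called higher with age in water, and nothing is read from this count because the genes were chosen on that difference.

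**Figure D1:**
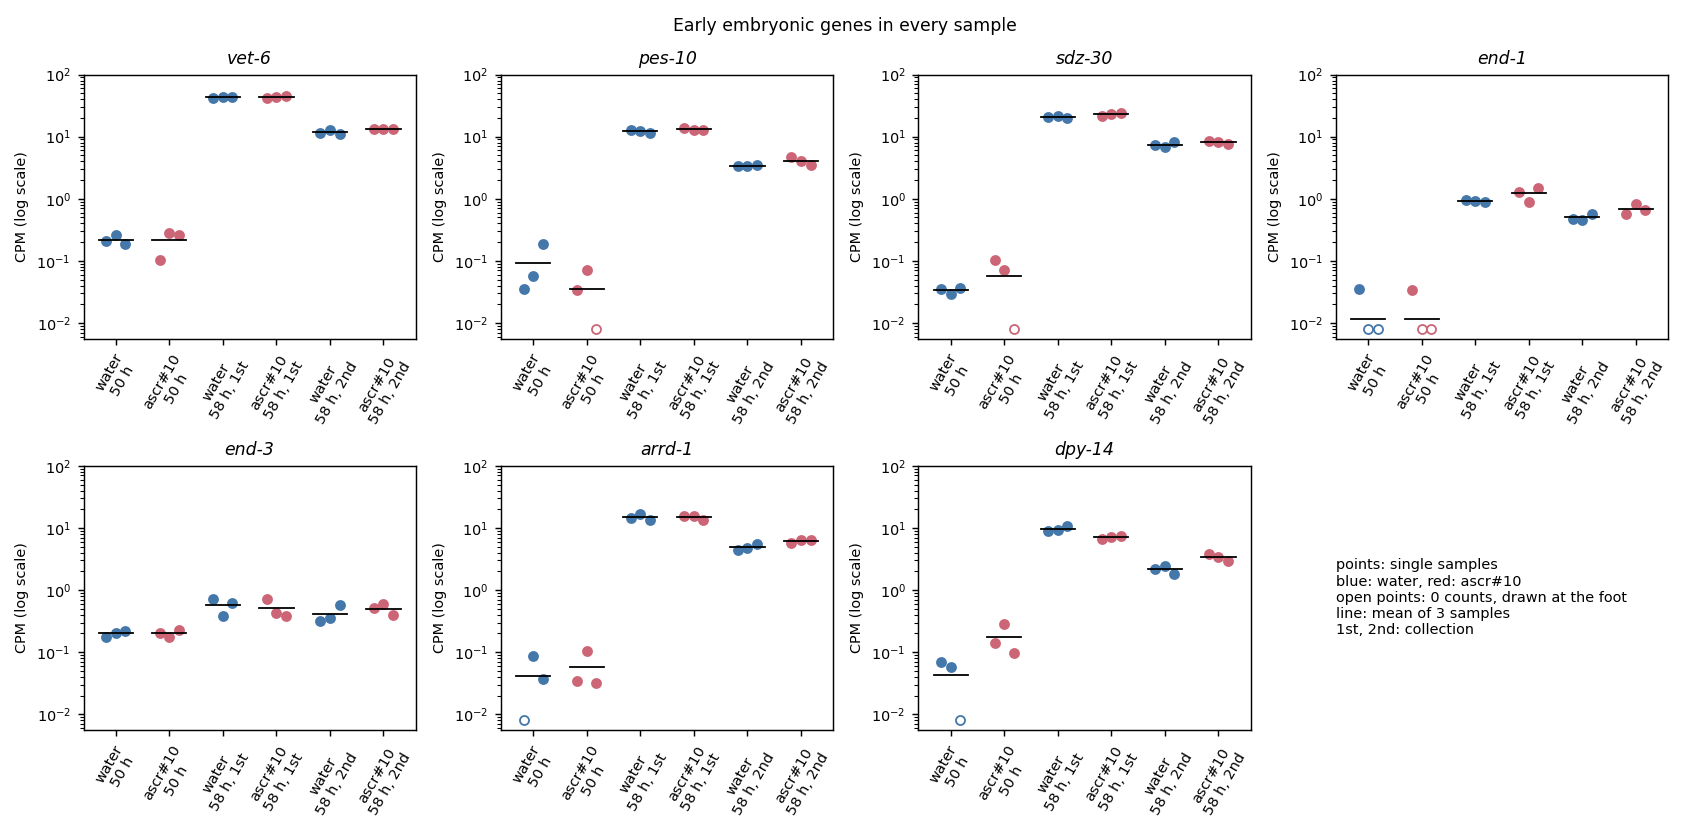
Level of each of the 7 genes in all 18 samples, in CPM on a log axis, with a line at the mean of each group of 3. At 58 h in the first collection vet-6 sat at 41.5 to 44.5 CPM and end-3 at 0.376 to 0.718 CPM, and at 50 h several samples had 0 counts (open points at the foot of the axis).

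In worms on ascr#10, samples that the rule for picking the genes did not name, 7 of 7 rose from 50 h to 58 h in the first collection, and 37% of all genes were called higher (edgeR quasi-likelihood tests, adjusted over 16006 genes). Nothing is read from that count, because the genes were picked for the same rise in water and passed the filter through their 58 h samples. vet-6 went from 0.103, 0.283 and 0.259 CPM to 41.5, 43.6 and 44.5 CPM, a log2 fold change of 7.63 ± 0.125 (SE, adjusted p = 5.94e-48). sdz-30 rose by log2 8.57 ± 0.199 (adjusted p = 1.29e-40), pes-10 by 8.48 ± 0.261 (adjusted p = 1.02e-34) and arrd-1 by 7.96 ± 0.234 (adjusted p = 1.17e-35). The ± values follow from the test statistic and are too narrow where a group has few counts, as at 50 h. Counting intervals of the ratios were wider, at 172 to 1240 for sdz-30, 134 to 1900 for pes-10 and 112 to 811 for arrd-1. For vet-6 the interval was 128 to 332.

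end-1 rose by log2 6.4 ± 0.627 (adjusted p = 1.52e-13), from 1 count over the 3 samples to 104, and that ratio of 108 has a counting interval of 19 to 4310. dpy-14 rose by log2 5.35 ± 0.241 (adjusted p = 4.06e-27), from 4, 8 and 3 counts to 216, 183 and 200. end-3 rose least, by log2 1.32 ± 0.444 (adjusted p = 0.00594), from 0.207, 0.177 and 0.227 CPM to 0.718, 0.422 and 0.376 CPM. Without replicate 1 of the 58 h ascr#10 samples, the highest of them, the change in end-3 was 0.95 and was not called (adjusted p = 0.0906).

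Whether age acted differently in ascr#10 and in water was tested as an interaction, and 0 of 7 genes were called by edgeR or by DESeq2, with 1 at an unadjusted p under 0.05 and 4.74% of all genes called. That gene was dpy-14, whose log2 rise was smaller in ascr#10 (interaction -2.29 ± 0.762, adjusted p = 0.073, 95% interval -3.82 to -0.76). The other 6 estimates lay between -0.59 for sdz-30 and 1.42 for pes-10, with wide intervals because they rest on the few counts of 50 h. For exposure at 50 h itself 0 of 7 genes were called by edgeR and by DESeq2, with 12.9% of all genes called. The few counts of 50 h leave wide 95% intervals, such as -3.27 to 3.32 for end-1 and -3.13 to 0.51 for pes-10. The lack of calls is therefore not read as a lack of change. There too 1 gene had an unadjusted p under 0.05, dpy-14, with 2, 2 and 0 counts in water and 4, 8 and 3 in ascr#10 (log2 fold change 1.87 ± 0.758, adjusted p = 0.0982). The interaction and the comparison at 50 h both rest in part on the water samples on which the genes were picked. That choice favours a large rise in water, so nothing is read from the direction of either dpy-14 value.

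Levels per transcript length place the genes in order. In TPM (transcripts per 1e6, scaled for length), the means in water at 58 h in the first collection were 16 ± 1.67 for arrd-1, 15.2 ± 0.265 for vet-6, 11.7 for sdz-30, 10.1 ± 0.973 for dpy-14, 8.69 for pes-10, 1.6 for end-1 and 1.01 for end-3 (SD, n = 3). Of the neighbours in this order only arrd-1 and vet-6 overlapped between samples. The order was the same in ascr#10 apart from dpy-14, which fell behind pes-10 with 7.40 ± 0.375 against 9.23 TPM. At 50 h in water the order was another one, with end-3 first at 0.333 TPM and the other 6 at or below 0.073 TPM.

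There were 2 close pairs among the 7 genes on the chromosomes, and the other 3 lay far from any of the rest. sdz-30 and vet-6 lie on the same strand of chromosome I with 34.3 kb and 6 protein-coding genes between them. end-1 and end-3 lie on the same strand of chromosome V, 27.6 kb apart with 4 protein-coding genes between them. Of the 7, end-3 alone overlaps another annotated gene, srh-308 on the opposite strand. srh-308 had 0 counts in 15 of 18 samples and at most 2 in any, so the counts of end-3 were not matched by counts of its antisense partner.

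The lists these genes belong to moved in part with them. Of the 29 other sdz genes tested, 25 rose with age in ascr#10 and 2 fell, with a median log2 fold change of 4.70 against -0.13 for all genes tested. Over all genes tested, 37% were called higher in this comparison and 43.9% lower. Many of these sdz genes were near 0 at 50 h, with sdz-5, sdz-10, sdz-11, sdz-18 and sdz-31 at 0 counts in water. Such genes passed the filter through their 58 h samples, which favours a rise, so nothing is read from the count of rises. sdz-11, sdz-13 and sdz-29 rose by log2 8.89, 8.15 and 7.96, while sdz-3 and sdz-24 fell by 3.78 and 2.12. In ascr#10 at 50 h sdz-11 and sdz-13 had 0 counts and sdz-29 a mean of 0.0115 CPM. The sizes of these 3 rises are therefore poorly set, and in water sdz-13 rose by log2 3.74. Both other vet genes rose, vet-1 by log2 4.96 and vet-2 by 3.63. The pes genes, named for patterned expression in a reporter screen and not for timing, were divided. Apart from pes-10, pes-1 and pes-5 rose by log2 1.38 and 1.41, and 5 of 7 fell, among them pes-8, which fell by 3.62.

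Around end-1 and end-3 in the endoderm and mesoderm network, ceh-51, a mesoderm regulator, rose by log2 7.29 with age in ascr#10 (adjusted p = 1.25e-19). Its mean went from 0.0118 CPM to 2.28 CPM, so the size of that rise is poorly set. pal-1, a maternally supplied homeobox gene, rose by log2 0.61. elt-7 was at 0.03 and was not called, and elt-2, which the adult gut also expresses, fell by 1.59. med-1, med-2 and tbx-35 reached at most 7, 5 and 11 counts in any sample and were not tested. Of 27 other genes that are switched on in embryos, 22 rose and 3 fell (median log2 1.38), against 37% higher and 43.9% lower over all genes tested. Some of them had 0 counts at 50 h and passed the filter through their 58 h samples. Others already stood at up to 74.5 CPM in ascr#10 at 50 h, so the list is not purely embryonic. pes-1 is counted both here and among the pes genes. Nothing is read from the count of rises in this list. Of 28 maternal genes 27 rose, by far less (median log2 0.63). Of the other arrestin-domain genes 4 of 22 were higher and 10 lower. That lower count is near the share over all genes, and nothing is read from it. Most other dpy collagens did not follow dpy-14, with 8 of 10 lower and a median of -3.24.

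**Figure D2:**
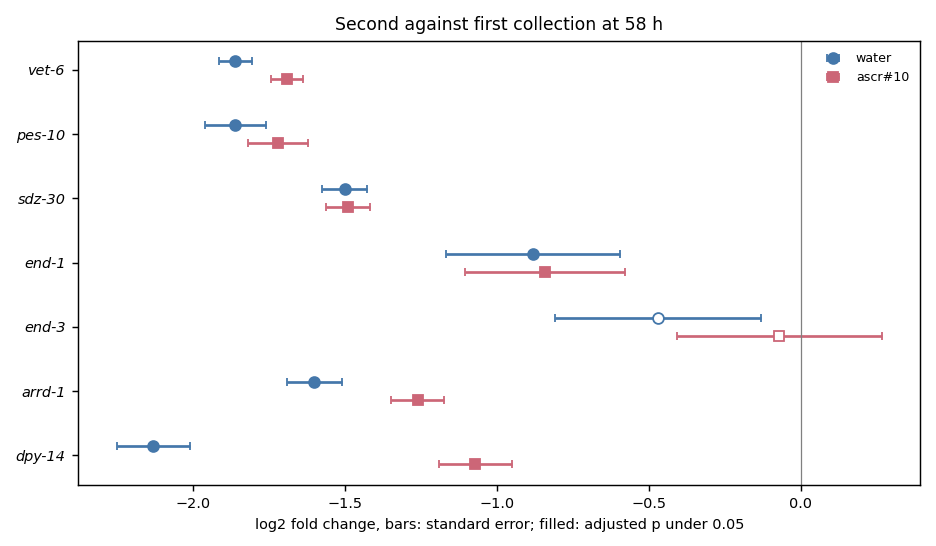
Log2 fold change of each gene between the second and the first collection at 58 h, in water and in ascr#10, with bars for the standard error and filled points where the adjusted p was under 0.05. All points but those of end-3 are filled and lie below 0, from -2.13 to -0.84.

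The 58 h worms of the second collection held much less of these RNAs. In water the first collection is a group that the genes were picked on for being high, so the values in water are given as a description and their calls support nothing. There 6 of 7 genes were called lower, as were 27.3% of all genes, and the all-gene median was 0.01. vet-6 stood at 11.6, 12.6 and 11.2 CPM in the second collection against 42.4, 42.7 and 43.9 CPM in the first, a log2 fold change of -1.86 ± 0.0537 (SE). pes-10 was at 3.41, 3.32 and 3.47 CPM against 12.8, 12.4 and 11.6, also -1.86. sdz-30 was at 7.36, 6.69 and 8.26 CPM against 21.0, 21.7 and 20.2, or -1.50. For these genes every sample of the second collection lay below every sample of the first.

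dpy-14 had the most negative log2 fold change in water, -2.13 ± 0.121, and arrd-1 was at -1.60 ± 0.0901. end-1 was at 0.47, 0.454 and 0.578 CPM against 0.958, 0.912 and 0.896, a change of -0.88 ± 0.286. end-3 was at 0.318, 0.355 and 0.578 CPM against 0.709, 0.38 and 0.624, which overlap, and its change was -0.47 (95% interval -1.15 to 0.21).

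In ascr#10, where the picking rule names no sample, the test called the same 6 genes lower in the second collection, and 25.4% of all genes. The baseline samples share the first collection with the water samples on which the genes were picked for being high. These calls are therefore not free of that choice, and nothing is read from their count. The log2 changes were -1.72 for pes-10 (edgeR adjusted p = 7.18e-22), -1.69 for vet-6 (adjusted p = 4.71e-33), -1.49 for sdz-30, -1.26 for arrd-1, -1.07 for dpy-14 and -0.84 for end-1 (adjusted p = 0.00521), and end-3 was at -0.07 (adjusted p = 0.876). The call for end-1 was lost without replicate 3 of the first collection (-0.67, adjusted p = 0.0554). All 7 genes had higher group means in the second collection at 58 h than in either exposure at 50 h, with end-3 lowest at 0.608 TPM in water.

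Most of the other early genes went the same way between the collections, while those of the endoderm and mesoderm list were divided. Over all genes tested, 27.3% were called lower in the second water collection and 30.8% higher. In water 18 of 29 other sdz genes were lower and 2 higher (median log2 -0.86), as were vet-1 by -1.29 and vet-2 by -1.33, and 19 of 27 other embryonic genes (median -0.79). The 8 oocyte marker genes did not, while maternal genes went both ways. Of the 8 oocyte genes 7 were higher in the second water collection and 0 lower by edgeR (median 0.15), while of 28 maternal genes 7 were higher and 14 lower (median -0.07). Of the 4 endoderm and mesoderm genes tested besides end-1 and end-3, 2 were higher and 1 lower (median 0.11). The higher ones were elt-2, which the adult gut also expresses (5.04 to 11.1 CPM), and the maternally supplied pal-1 (136 to 155 CPM). The lower one was ceh-51 (2.12 to 1.49 CPM), which like end-1 was near 0 at 50 h. All 3 genes of a late-embryo list were lower, but tnt-4 and ceh-22 already stood at 75.3 and 1.64 CPM in water at 50 h, when the 7 genes were near 0. hch-1, the hatching enzyme, was at 0.0117 CPM at 50 h and went from 2.82 ± 0.017 CPM to 0.292 ± 0.0617 CPM between the collections (SD, n = 3 each). The 3 muscle genes were lower as well, with summed levels of 2550 to 2710 CPM against 3300 to 3530. The collections also differed in depth, as given above, and the part of any of these in the result was not tested.

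The differences of these genes between ascr#10 and water at 58 h ran from log2 -0.42 to 0.63. Their size is not compared with that of the age differences, since the genes were picked for a large rise with age. In the first collection 1 of 7 genes was called, dpy-14, which was lower, against 5.22% of all genes called lower. In the second 3 of 7 were called, each of them higher (dpy-14, arrd-1 and vet-6), against 15.3% of all genes called higher. With the effects of both collections averaged, 1 of 7 was called, arrd-1 at 0.18 ± 0.0629 (adjusted p = 0.0328), against 11.8% of all genes called higher. That call for arrd-1 was lost when any 1 of 8 of the 12 libraries was left out, with adjusted p of 0.0609 to 0.114.

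arrd-1 was not called in the first collection, where water samples had 14.4, 16.5 and 13.6 CPM and ascr#10 samples 15.5, 15.5 and 13.6 (log2 0.01, 95% interval -0.17 to 0.18). In the second collection water samples had 4.42, 4.77 and 5.57 CPM and ascr#10 samples 5.81, 6.4 and 6.47. These groups did not overlap, and arrd-1 rose by log2 0.35 ± 0.091 (edgeR adjusted p = 0.00268). The difference between the collections in this effect was 0.34 ± 0.126 and was not called (adjusted p = 0.0703), but it was without replicate 3 of the second water collection (0.43, adjusted p = 0.0265) or replicate 1 of the second ascr#10 collection (0.39, adjusted p = 0.0331).

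vet-6 rose by log2 0.18 ± 0.0561 in the second collection, from 11.6, 12.6 and 11.2 to 13.3, 13.5 and 13.4 CPM (edgeR adjusted p = 0.00993), and was at 0.01 in the first (95% interval -0.09 to 0.11). The call was lost without replicate 3 of the second water collection (0.15, adjusted p = 0.0803). pes-10 was at 0.25 ± 0.105 in the second collection (adjusted p = 0.0642), and its ascr#10 samples of 4.72, 4 and 3.46 CPM overlapped the water samples, which ran from 3.32 to 3.47. It was called with DESeq2 size factors (0.27, adjusted p = 0.0414), with DESeq2 (0.27, adjusted p = 0.0469) and without replicate 3 of the second ascr#10 collection (0.36, adjusted p = 0.0144). sdz-30 was at 0.12 in the first and 0.13 in the second, end-1 at 0.41 and 0.45, and end-3 at -0.15 and 0.24, none of them called. For end-1 the 95% intervals ran from -0.16 to 0.97 and from -0.08 to 0.98, which is what 74 to 119 counts per group allow.

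**Figure D3:**
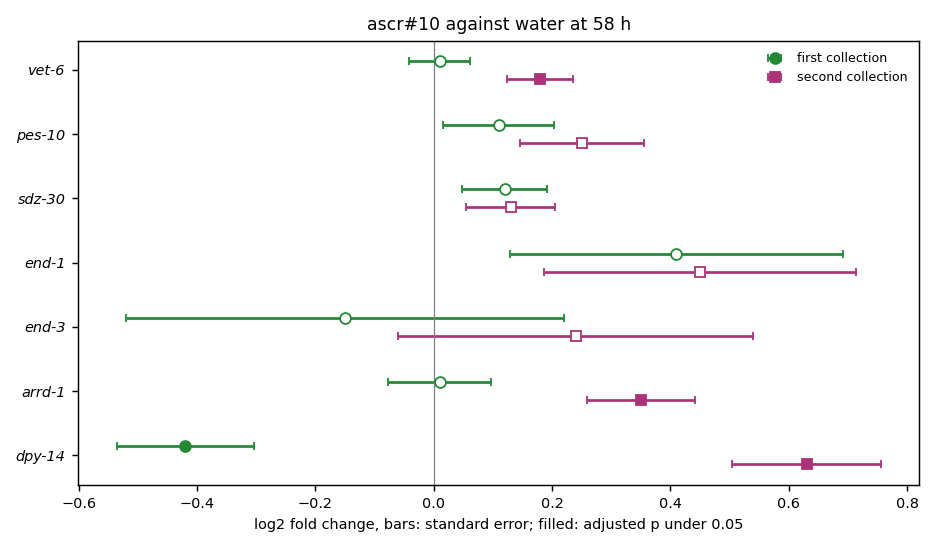
Log2 fold change of ascr#10 against water at 58 h for the 7 genes, by collection, with bars for the standard error and filled points where the adjusted p was under 0.05. dpy-14 lies at -0.42 in the first collection and at 0.63 in the second, and the other called genes, vet-6 at 0.18 and arrd-1 at 0.35, are of the second.

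Markers of other tissues also differed by exposure in both collections. Over all genes tested, 5.22% were called lower with ascr#10 in the first collection, and 15.3% higher and 16.4% lower in the second. In the first, 5 of 7 sperm genes (median -0.63) and 2 of 3 muscle genes were lower with ascr#10, with summed sperm levels of 49.7 to 49.8 CPM against 77.4 to 79.8 in water. In the second, 5 of 7 sperm genes (median -0.48) and 3 of 4 intestine genes (median -0.16) were lower. All 8 oocyte genes were higher there with ascr#10 (median 0.15), as were 23 of 28 maternal genes (median 0.11). The oocyte and maternal lists share most of the oocyte genes, so these counts are not separate. The summed oocyte level was 6080 to 6170 CPM with ascr#10 against 5570 to 5600 CPM in water. All 3 muscle genes were lower, with summed levels of 2080 to 2180 CPM against 2550 to 2710. Of the 29 other sdz genes 5 were higher and 0 lower (edgeR, median 0.14), among them sdz-21 at 0.51 and sdz-4 at 0.40. The part of these shifts in the changes of dpy-14, vet-6 and arrd-1 was not tested.

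dpy-14 was the gene whose response to ascr#10 turned round. In the first collection its levels were 8.80, 9.16 and 10.6 CPM in water and 6.74, 7.02 and 7.52 CPM in ascr#10, with no overlap, and it fell by 0.42 on the log2 scale (SE 0.116, edgeR adjusted p = 0.0118). In the second they were 2.20, 2.47 and 1.82 CPM in water and 3.83, 3.45 and 2.89 CPM in ascr#10, again with no overlap, and it rose by 0.63 ± 0.126 (adjusted p = 8.63e-05). The difference between the effects was 1.06 ± 0.171 (adjusted p = 6.49e-06), against 11.1% of all genes called for such a difference. Both this difference and the first-collection fall rest in part on the water samples of 58 h on which the genes were picked, whereas the rise in the second collection does not. dpy-14 was the only one of the 7 called for the difference. The fall in the first collection was lost without replicate 3 of its water samples (-0.34, adjusted p = 0.118) or replicate 1 of its ascr#10 samples (-0.38, adjusted p = 0.0709). The rise in the second was called whichever sample was left out.

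**Figure D4:**
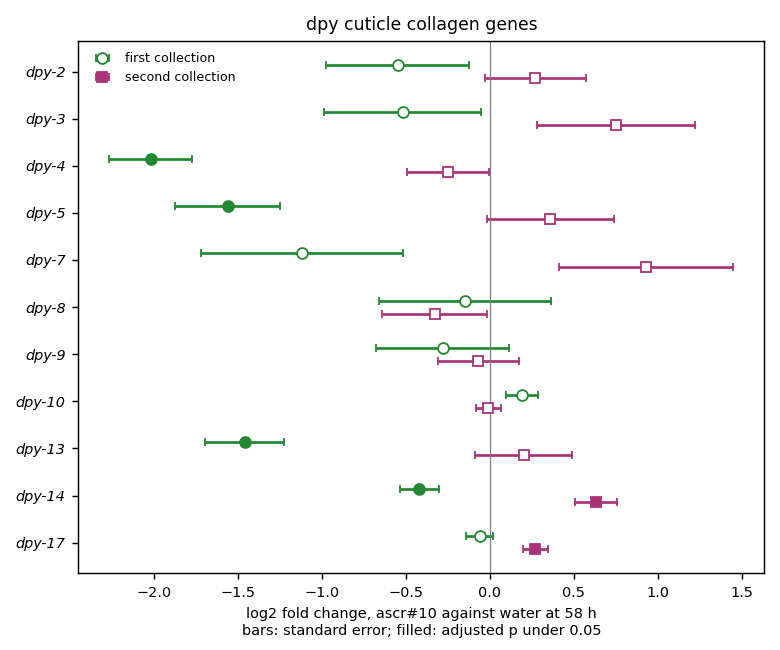
Log2 fold change of ascr#10 against water at 58 h for 11 dpy genes that encode cuticle collagens, by collection, with bars for the standard error and filled points where the adjusted p was under 0.05. dpy-4, dpy-5, dpy-13 and dpy-14 were lower in the first collection, and dpy-14 and dpy-17 higher in the second.

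Some other cuticle genes also differed between the collections in their response to ascr#10. Of the 10 other dpy collagens, 4 had a more positive response in the second collection and 0 a more negative one by edgeR, where 4.34% and 6.8% of all genes were called (median difference 1.04, against 0.02 for all genes). They were dpy-5 at 1.92, dpy-4 at 1.77, dpy-13 at 1.66 and dpy-17 at 0.33. In the first collection dpy-4, dpy-5 and dpy-13 had log2 fold changes of -2.02, -1.56 and -1.46 with ascr#10, each of them called. In the second they were low, at 0.401, 0.147 and 0.239 CPM in water and 0.333, 0.184 and 0.281 CPM in ascr#10. None of these 3 was called there. At such low levels a turn like that of dpy-14 could have been missed, so its presence or absence is not read from them. These 3 differ from dpy-14 with age, since they fell steeply from 50 h to 58 h in ascr#10, dpy-4 by 8.60, while dpy-14 and dpy-17 rose by 5.35 and 2.59.

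hch-1, which encodes the enzyme that digests the eggshell at hatching, moved in the same direction as dpy-14 in the following comparisons. It rose by log2 9 with age in ascr#10, a size that is poorly set because it had 0 counts there at 50 h. With ascr#10 at 58 h its first-collection value was -0.81 and its second-collection value 1.12 (difference 1.93, adjusted p = 5.66e-05), and it was lower by 3.27 in the second water collection than in the first. It was chosen for mention after its values were seen. The other late-embryo genes did not share this, with differences of 0.14 for ceh-22 (not called) and -0.54 for tnt-4, and both are also expressed in the adult pharynx.

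**Figure D5:**
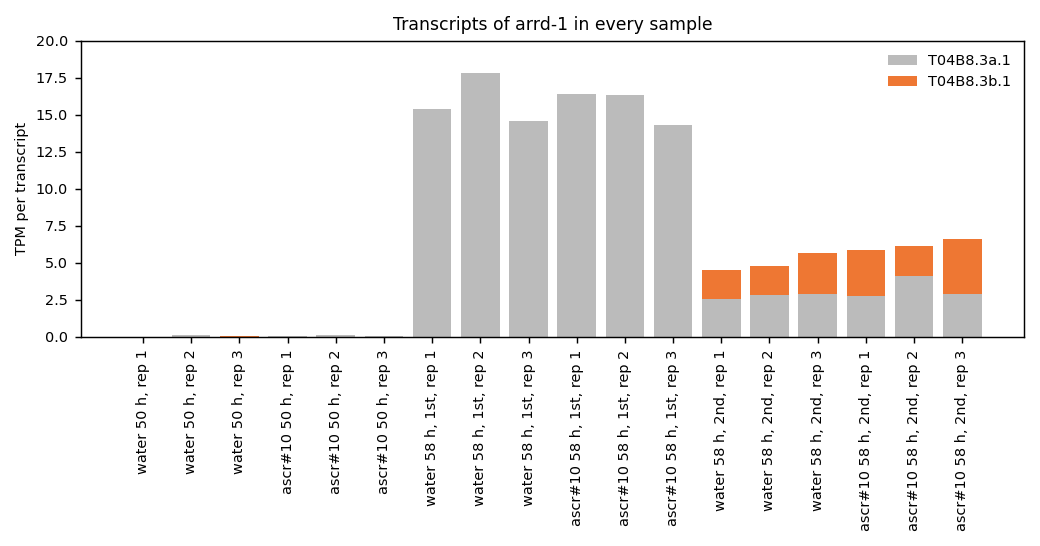
TPM of the annotated transcripts of arrd-1 in each of the 18 samples, stacked, with T04B8.3a.1 in grey and T04B8.3b.1 in orange. The orange part is absent from the 6 samples of the first 58 h collection and stands at 1.91 to 3.75 TPM in the 6 of the second.

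arrd-1 is the only one of the 7 with more than one annotated transcript. T04B8.3a.1 has 3 exons and 1033 nt, and T04B8.3b.1 has 2 exons and 516 nt and lies within it, from 627921 to 628510. In the first 58 h collection 100% of the estimated counts of arrd-1 were placed on T04B8.3a.1 in all 6 samples. In the second collection T04B8.3b.1 received 33% to 40.9% of them in the 3 water samples and 26.2% to 48.7% in the 3 ascr#10 samples. The shares did not overlap between collections and overlapped between exposures within the second. Since the shorter transcript is nested in the longer, its share is an estimate by the quantification software, and how read length or library type differed between collections is not given in the sources used here.

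The genes whose pattern over the 6 groups was nearest to the median of the 7, by Euclidean distance of centred log2 CPM group means, were Y82E9BR.17 (distance 0.427), Y46G5A.28 (0.476), F56F4.8, clec-196, fbxb-37, fbxb-91, Y71A12B.11 and skr-9 (0.889). Y82E9BR.17 stood at a mean of 0.112 CPM in water at 50 h, 15.7 CPM in the first 58 h collection and 5.12 CPM in the second. Y46G5A.28, which was also nearest to pes-10 alone (0.401), lies 2592 bp from pes-10 with no protein-coding gene between them and on the opposite strand. Nearest to dpy-14 were Y116A8C.19, fbxc-25 and pes-2.1. Nearest to end-1 were fbxb-15, C40A11.4 and sdz-14, and nearest to end-3 were H04M03.3, Y9D1A.2 and mom-1, with distances of 0.135 to 0.172 that reflect its small range.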

How the data were processed

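Whole-worm RNA was sequenced from directional single-end libraries, per the labels' protocols. The deposited estimated counts per gene and per transcript and the deposited TPM values were made with salmon, per the file headers. For its version, genome build and strand setting, nothing is stated (not given in the sources used here). Counts were rounded to whole numbers before testing, and 95.2% of gene counts were already whole. One characteristic gives 58 h for all samples, so ages were taken from titles and descriptions. Genes were kept with edgeR's filterByExpr (minimum count 10), scaled by TMM and tested by quasi-likelihood in edgeR 4.0.16 (R 4.3.3) on 6 group means over 18 samples, with Benjamini-Hochberg adjustment over 16006 genes and a threshold of 0.05. A standard error is the log2 fold change divided by the square root of F. It understates the error of a large change from a group with few counts, as in the comparisons with age. The biological coefficient of variation was 2.86%. In a single sample 3 counts equal 0.0425 to 0.117 CPM.

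The alternatives were DESeq2 size factors, no filter, DESeq2 1.42.0, the deposited length-scaled estimated counts, limma 3.58.1 on log2(TPM + 1) and log2(TPM + 0.1), a replicate block, only the groups compared, and leaving out each sample. Replicate numbers did not pair the samples, as the deviations of same-numbered samples from their group means of log2 CPM correlated at -0.05 to 0.03. The 7 genes and the gene lists were chosen with earlier results of these data known. The named genes are the 7, any sdz, vet, pes or endoderm and mesoderm gene, the 3 most changed of other lists, and the nearest in pattern (8 to the median, 3 to each gene). Positions are from Ensembl release 115 by gene identifier.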

Additional observations from a re-analysis of the deposited data

Results flagged for a closer look

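The response of dpy-14 to ascr#10 at 58 h differed between the collections, tested as an interaction in edgeR over all genes. The log2 fold change was -0.42 ± 0.116 for the first collection and 0.63 ± 0.126 for the second, and the difference was 1.06 ± 0.171 (SE, adjusted p = 6.49e-06). All 3 ascr#10 samples lay below all 3 water samples in the first collection and above them in the second. The water level was 9.50 ± 0.933 CPM in the first and 2.16 ± 0.327 CPM in the second (SD, n = 3 each), and the ascr#10 level 7.09 ± 0.395 and 3.39 ± 0.471 CPM. The water samples of the first collection are among those on which the gene was picked. The collections also differed in depth, and its part in this was not tested.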

How the results depend on the processing

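The counts of genes called for age in ascr#10 (7) and for collection in water (6) and in ascr#10 (6) were the same under every alternative or within 1.5 times. The averaged exposure effect at 58 h called 1 gene, but 4 with DESeq2 size factors, with no filter, with DESeq2 and with only the groups compared. It called 0 with length-scaled counts and with either TPM fit, and 0 to 2 when 1 sample was left out. For exposure in the first collection the count of 1 became 0 with length-scaled counts and with log2(TPM + 0.1), and 0 to 1 when 1 sample was left out. In the second collection the count of 3 became 0 with log2(TPM + 0.1), and at 50 h the count of 0 became 1. For the difference in the age effect it went from 0 to 1, dpy-14, with length-scaled counts and both TPM fits. For the difference between collections it went from 1 to 0 with log2(TPM + 0.1), where dpy-14 was at 1.03 (adjusted p = 0.0607), and was 1 to 2 when 1 sample was left out. The cause of these shifts was not tested. The replicate block changed no call and gave 1.06 for the dpy-14 difference. No called value changed sign. TPM fits moved the all-gene median between collections in water from 0.01 to -0.15 and -0.23, and called end-3 lower there (-0.32 and -0.64, adjusted p = 0.038 and 0.0435). Over all genes, calls for exposure in the second collection went from 5067 to 2279 and 2428 with the TPM fits, with 18% and 17% of them higher against 48.3%. For the averaged effect they went from 4083 (46.3% higher) to 2379 and 2596 (12.1% and 11.4% higher), and to 4949 with DESeq2 size factors (59.5% higher). In the first collection they went from 1289 (35.2% higher) to 2277 without the filter (62.9% higher). Depth limits end-1 and end-3 at 58 h and every gene at 50 h.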

Other observations

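A wider set of genes was taken after the data were seen, as those other than the 7 with a called log2 rise over 5 from 50 h to 58 h in ascr#10. There were 224 of them. They were chosen on high ascr#10 values of the first collection, and the water samples of that collection are the baseline here. In the water samples 158 of the 224 (70.5%) were lower in the second collection than in the first and 2 (0.893%) were higher, against 27.3% lower and 30.8% higher over all genes tested, with a median log2 fold change of -0.89 and quartiles of -1.16 and -0.50. With ascr#10 in the second collection 41 of the 224 (18.3%) were higher and 0 lower by edgeR, with a median of 0.23, against 15.3% higher and 16.4% lower over all genes tested.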
